A study of Sus scrofa with 12 samples.

Results

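The miR-30 microRNAs were followed in extracellular vesicles shed by pig bone marrow stromal cells under 3 culture methods. All rows of the mature miRNA table named miR-30a to miR-30e were taken, both arms included, which gave 10 of 252 rows. They are miR-30a-5p, miR-30b-5p, miR-30c-5p, miR-30d and miR-30e-5p from the 5p side, and miR-30a-3p, miR-30b-3p, miR-30c-1-3p, miR-30c-3p and miR-30e-3p from the 3p side. miR-30d is listed without an arm and is known as a 5p product.

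The cells were wild-type mesenchymal stromal cells aspirated from the marrow of juvenile Yucatan minipigs, expanded on plastic and frozen before use. Cells of 4 donors were each grown in a perfusion bioreactor, where medium flowed at 4 mL/min over a seeded scaffold, on microcarriers in a stirred spinner flask, and on tissue culture plates. That gave 12 small RNA libraries, 1 per donor and method, from vesicles pelleted out of the conditioned medium. Microcarriers received 10% fetal bovine serum after a serum-free seeding step, plates received 10% from the start, and the labels name no serum for perfusion. The labels give neither the sex nor the exact age of the pigs.

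A microRNA is cut from a hairpin precursor, and either strand of the hairpin can be loaded into Argonaute, where it guides repression of messages that match its seed. The 5p arms of the miR-30 family share a seed, so in human and mouse cells they can act on many of the same messages. Among these are the bone transcription factor RUNX2, SMAD1, the autophagy gene BECN1 and the mesenchymal regulator SNAI1. In human and mouse stromal cells the family is known for restraining osteoblast formation and favouring adipocyte formation. The 3p arms have other seeds and are usually the less abundant strand. RefSeq annotates 6 hairpin genes for the family on the pig assembly Sscrofa11.1, in 3 neighbouring pairs. MIR30A lies beside MIR30C-2, MIR30B beside MIR30D, and MIR30E beside MIR30C-1, the last pair inside NFYC, which encodes a subunit of a CCAAT-binding transcription factor. miR-30c-5p can come from either miR-30c hairpin.

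Values are the authors' normalized read counts. The spacing of these values gives the number of reads behind them, which per library was 671012 to 1614726 for perfusion, 607776 to 2244584 for microcarriers and 264407 to 3253003 for plates, the smallest being plate donor 2. Stromal markers were present throughout: the 10 rows for 8 fixed stromal miRNAs were above 0 in every library, and summed to 499576 to 610217 in perfusion, 402231 to 619403 on microcarriers and 335749 to 518684 on plates. A single row, miR-21-5p (chosen after its values were seen), made up most of the sum in every library, so the sums mainly follow that row. Limma called 2 of these 10 rows higher in perfusion than on microcarriers, where 5.56% of all miRNAs were called higher. In each of the other comparisons it called 0 of the 10. Rows listed as markers of other cells differed by culture, and whether they came from such cells or from serum was not tested. Of the 7 blood-cell miRNAs, the erythroid miR-144 and myeloid miR-223 were listed at 0 in 2 and 4 perfusion libraries (both chosen after their values were seen). All 7 blood-cell rows were lower in perfusion than in either other group in limma at an adjusted p under 0.05. Of all miRNAs, 10.3% were called lower against plates and 9.92% against microcarriers. The endothelial rows were called lower in 2 of 2 cases in both comparisons. Of the liver and gut rows, 2 of 3 were called lower against plates and 3 of 3 against microcarriers.

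Together the 10 rows made up 1.05% ± 0.0830 of the normalized counts in perfusion, 1.15% ± 0.174 on microcarriers and 1.26% ± 0.0915 on plates (SD, n = 4 each). Over all 12 libraries this share ran from 0.910% to 1.40%. Levels of different members are compared here as counts of ligated reads, and since small RNA ligation favours some sequences, such a comparison is approximate. miR-30d led in every library except plate donor 3. It held 46.0% ± 3.27 of the miR-30 counts in perfusion, 47.2% ± 3.87 on microcarriers and 37.0% ± 7.48 on plates. Its mean over the libraries, 6046 normalized counts, ranked 25 of 252. miR-30a-5p followed at 2776 (rank 36), then miR-30e-5p at 1722 (rank 49), miR-30c-5p at 1651 (rank 50), miR-30e-3p at 914 (rank 64), miR-30b-5p at 712 (rank 72) and miR-30a-3p at 186 (rank 120). The remaining miR-30b-3p, miR-30c-1-3p and miR-30c-3p averaged 9.53, 6.50 and 10.7, and together gave 0.0836% to 0.312% of the family's counts.

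**Figure D1:**
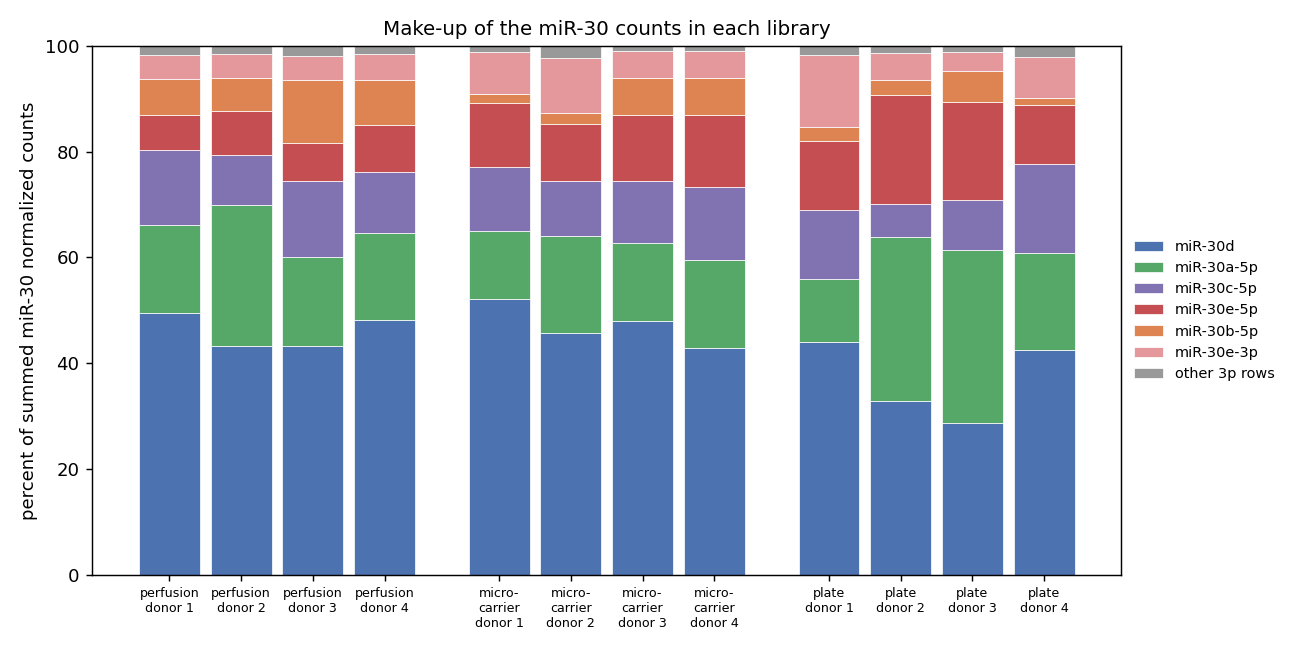
Share of each miR-30 row in the summed miR-30 normalized counts (y axis, percent) for each of the 12 libraries (x axis). miR-30d is the largest block in all but plate donor 3, and miR-30e-5p is thinnest in perfusion, at 7.71% on average against 12.2% on microcarriers and 15.8% on plates.

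The clearest difference between cultures was in miR-30e-5p, the 5p arm of the hairpin in NFYC. It stood at 643.9, 1146, 815.9 and 1201 normalized counts in perfusion donors 1 to 4, at 1882, 1647, 1878 and 1695 on microcarriers, and at 1743, 3197, 3012 and 1808 on plates. Every perfusion library was below every library of both other groups, while the microcarrier and plate ranges overlapped. Within donors, perfusion held 0.369, 0.358, 0.271 and 0.664 of the plate level in donors 1 to 4. Perfusion vesicles averaged 952 ± 266 against 2440 ± 772 on plates (SD, n = 4 each), a log2 fold change of -1.35 ± 0.29 (SE; limma, adjusted p = 0.00745 over 252 miRNAs), or 2.54-fold lower. The fall kept its call in each of 21 alternative fits, with limma adjusted p between 0.00614 and 0.0255. Those without a microcarrier library change the shared spread but cannot change this fold change. In these bulk vesicle pellets, fewer vesicles of a kind and less of a miRNA per vesicle cannot be told apart. The labels name serum for microcarriers and plates only, so a difference by serum and one by perfusion cannot be told apart either.

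Perfusion was also below microcarriers in miR-30e-5p, at 952 ± 266 against 1775 ± 122 (SD, n = 4 each). The log2 fold change was -0.94 ± 0.29 (limma adjusted p = 0.0398), lower in 4 of 4 donors. This call is less stable, since it ended when values were scaled to library totals (-0.80, adjusted p = 0.0686), with a trimmed mean scaling (-0.87, adjusted p = 0.0648), without a variance trend (-0.94, adjusted p = 0.0543) and without any one of perfusion donors 1, 3 and 4 or microcarrier donors 1 to 4 (-1.07 to -0.77). Over its 21 alternatives the limma adjusted p ran from 0.0254 to 0.119. Scaling to library totals moved the median over all miRNAs in this comparison to 0.08 on the log2 scale, where it was -0.07 as deposited. Microcarriers against plates gave -0.41 ± 0.29 for miR-30e-5p (95% interval -1.02 to 0.21; limma adjusted p = 0.395). In order of level, plates and microcarriers were thus neighbours that did not differ beyond their spread, and perfusion lay below both.

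The blood-cell, endothelial and liver markers also stood lowest in perfusion, and their part in the miR-30e-5p result was not tested. Their source was not tested either, and cells and the serum named only for microcarriers and plates cannot be told apart here. The 7 blood-cell rows summed to 39.07 to 384.6 normalized counts in perfusion, 2457 to 8852 on microcarriers and 699 to 3228 on plates. The 2 endothelial rows summed to 118.7 to 190.8 in perfusion, 944.8 to 6092 on microcarriers and 582.9 to 2184 on plates. The 3 liver and gut rows summed to 20.26 to 64.1 in perfusion, 269.9 to 2446 on microcarriers and 187.2 to 1241 on plates.

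Among the 10 rows, miR-30e-5p was the only one called in any comparison of the main fit, which left out donor. With donor as a block, miR-30b-5p was called too, higher in perfusion than on plates (limma adjusted p = 0.0403). Perfusion against plates called 0 members higher and 1 lower, where 20.6% of all 252 miRNAs were called, 10.3% in each direction. Perfusion against microcarriers likewise called 0 higher and 1 lower, where 15.5% of all miRNAs were called, 5.56% higher and 9.92% lower. That is 14 higher and 25 lower, and under library totals 17 higher and 20 lower. Microcarriers against plates called 0 of the 10 in limma, where 2.38% of all were called, 1.59% higher and 0.794% lower. There 0 of the 10 had an unadjusted limma p under 0.05, a level that 51 of all 252 miRNAs reached. Limma-voom on recovered reads also called 0 of the 10. In perfusion against plates 3 of the 10 and 79 of the 252 reached that unadjusted level, and against microcarriers 2 and 74. The count of members called is near or under the background share in each comparison. The median log2 fold change of the 10 rows was -0.24 in perfusion against plates, where that of all miRNAs was -0.06. It was -0.17 against 0.11 for microcarriers over plates, and -0.28 against -0.07 for perfusion over microcarriers. Perfusion and microcarriers share the same 4 plate libraries as their control. The 2 comparisons of perfusion for miR-30e-5p were the ones in which groups did not overlap. Of all miRNAs, 12.3% were wholly higher and 10.7% wholly lower in perfusion than on plates, and 11.5% wholly higher and 13.1% wholly lower than on microcarriers. Between microcarriers and plates 0 members separated, where 5.16% of all miRNAs were wholly higher and 6.75% wholly lower on microcarriers.

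**Figure D2:**
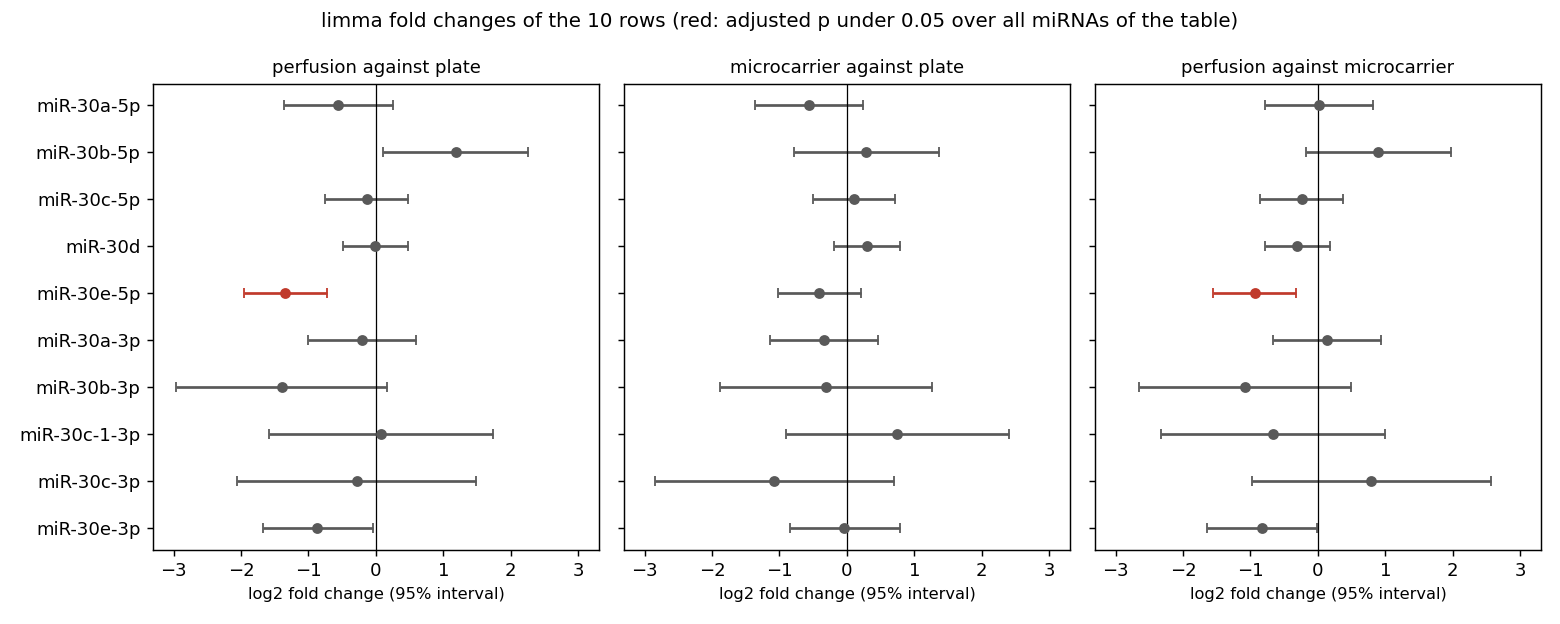
Log2 fold changes (x axis) with 95% intervals for the 10 miR-30 rows (y axis) in each of the 3 comparisons, from limma on log2(value + 1). miR-30e-5p, in red, is the one row called, at -1.35 against plates and -0.94 against microcarriers, and the 3p rows near 10 counts have the widest intervals.

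The other arm of the same hairpin, miR-30e-3p, was also low in perfusion but more variable elsewhere. It read 453.7, 631.3, 511.5 and 662.2 normalized counts in perfusion donors 1 to 4, 1249, 1596, 776.5 and 626.1 on microcarriers, and 1841, 788.3, 597.3 and 1240 on plates. Perfusion spanned a 1.46-fold range, microcarriers a 2.55-fold and plates a 3.08-fold range, and the groups overlapped. Perfusion was below plates in 4 of 4 donors, with a log2 fold change of -0.87 ± 0.38 (95% interval -1.68 to -0.05) that did not pass adjustment in limma (adjusted p = 0.136). Against microcarriers the value was -0.83 ± 0.38 (limma adjusted p = 0.166), lower in 3 of 4 donors.

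miR-30c-1-3p comes from the neighbouring hairpin in NFYC and was too low to follow. It was listed at 0 in plate donor 2 and at most 11.58 normalized counts elsewhere, where it rested on 2 to 26 reads. Its log2 fold change in perfusion against plates was 0.08 ± 0.77 (95% interval -1.58 to 1.73; limma adjusted p = 0.95). Against microcarriers it was -0.67 ± 0.77 (limma adjusted p = 0.588). These intervals do not separate its change from that of miR-30e-5p.

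miR-30b-5p leaned the other way. It stood at 667.8, 883.8, 1356 and 1156 normalized counts in perfusion donors 1 to 4, at 255.2, 329.0, 1032 and 890.6 on microcarriers, and at 348.7, 453.3, 942.8 and 232.5 on plates. Perfusion was the highest of the 3 cultures in every donor, but the groups overlapped, since plate donor 3 and microcarrier donors 3 and 4 lay above the lowest perfusion libraries. Plate donor 4 was the lowest of all 12. The ratio of perfusion to plates was 1.92, 1.95, 1.44 and 4.97 in donors 1 to 4. The log2 fold change was 1.18 ± 0.50 (95% interval 0.10 to 2.26) and did not pass in limma (adjusted p = 0.124). With donor as a block it passed (1.18, limma adjusted p = 0.0403), and so it did without plate donor 3 (1.56, adjusted p = 0.046). Over the alternatives the adjusted p ran from 0.0403 to 0.276. Against microcarriers the difference was 0.89 ± 0.50 (limma adjusted p = 0.244), and microcarriers over plates gave 0.29 ± 0.50 (limma adjusted p = 0.779).

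Its precursor's other strand, miR-30b-3p, was near the lowest reads listed. Perfusion libraries held 8.682, 0, 9.472 and 4.499 normalized counts, which are 12, 0 as listed, 7 and 6 reads, against 19.2, 19.71, 6.281 and 7.735 on plates, which are 25, 4, 10 and 19 reads. The log2 fold change of -1.39 ± 0.73 was not called (limma adjusted p = 0.222). It rests on the library at 0 and on the pseudocount, being -0.63 without perfusion donor 2, -2.24 with a pseudocount of 0.1 and -0.56 with 10, with an adjusted p of 0.151 to 0.47 over its alternatives.

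miR-30d, whose gene lies beside that of miR-30b, was the steadiest member. It stood at 4887, 6024, 4879 and 6537 normalized counts in perfusion, 8064, 7076, 7176 and 5359 on microcarriers, and 5904, 5099, 4652 and 6891 on plates, a 1.73-fold range over all 12 libraries. Perfusion minus plates was -0.01 ± 0.23 on the log2 scale (95% interval -0.49 to 0.47; limma adjusted p = 0.973), and its sign turned under other scalings (0.06 with library totals, 0.04 with trimmed means). The other differences were 0.30 ± 0.23 for microcarriers over plates (adjusted p = 0.441) and -0.31 ± 0.23 for perfusion over microcarriers (adjusted p = 0.371), both from limma. The 3 intervals exclude a 2-fold change in either direction for this row.

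**Figure D3:**
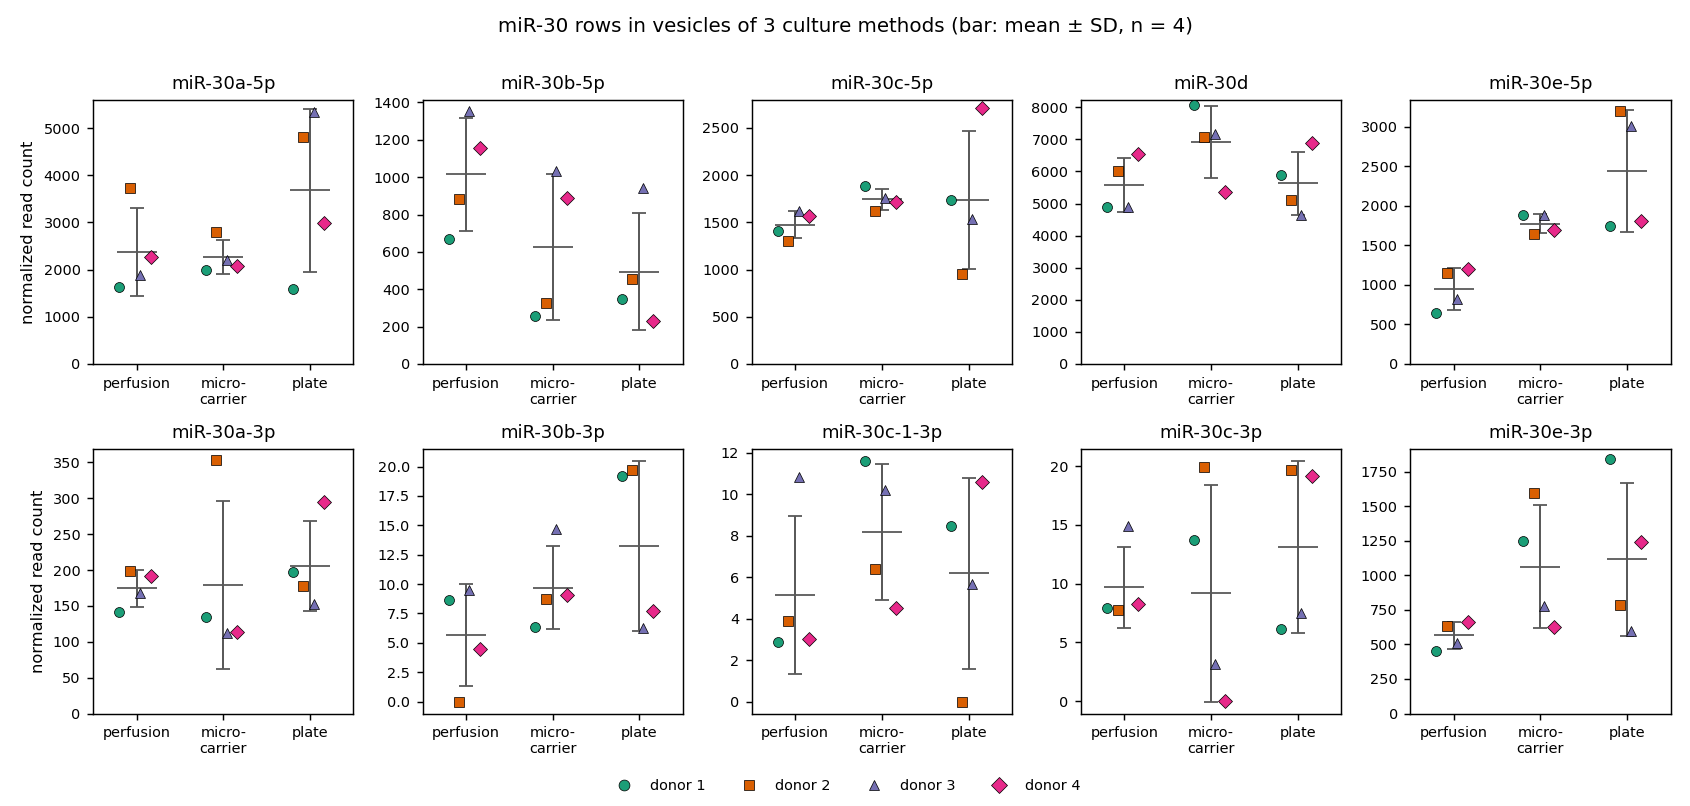
Normalized read counts (y axes, each from 0) of the 10 miR-30 rows in perfusion, microcarrier and plate vesicles, with 1 marker per donor and the mean ± SD of 4 libraries. In miR-30e-5p the 4 perfusion libraries, 643.9 to 1201, lie below the 4 microcarrier (1647 to 1882) and the 4 plate libraries (1743 to 3197), while miR-30d stays between 4652 and 8064.

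miR-30a-5p varied most on plates. It read 1640, 3731, 1884 and 2259 normalized counts in perfusion donors 1 to 4, 1994, 2806, 2201 and 2082 on microcarriers, and 1588, 4804, 5346 and 2981 on plates. Plate donors 2 and 3 were the high libraries, and the same 2 were highest in miR-30e-5p. The log2 fold change was -0.56 ± 0.37 for perfusion over plates (limma adjusted p = 0.328), -0.56 ± 0.37 for microcarriers over plates (adjusted p = 0.361) and 0.01 ± 0.37 for perfusion over microcarriers (adjusted p = 0.991).

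Its passenger, miR-30a-3p, averaged 175 ± 25.8 in perfusion, 179 ± 117 on microcarriers and 206 ± 62.2 on plates (SD, n = 4 each). Microcarrier donor 2 stood alone at 353.7, against 112.9 to 135.2 in the other 3 microcarrier libraries. No difference passed (smallest limma adjusted p = 0.613).

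miR-30c-5p, known as a repressor of RUNX2 in mouse osteoblasts, was called in no comparison. It stood at 1411, 1307, 1622 and 1564 normalized counts in perfusion, 1880, 1617, 1758 and 1718 on microcarriers, and 1742, 955.8, 1531 and 2711 on plates. The plate values spread 2.84-fold, while perfusion spread 1.24-fold and microcarriers 1.16-fold. Perfusion over plates gave a log2 fold change of -0.14 ± 0.29 (95% interval -0.76 to 0.48; limma adjusted p = 0.773), and perfusion over microcarriers gave -0.24 ± 0.29 (adjusted p = 0.597), below in 4 of 4 donors. Its low 3p partner, miR-30c-3p, ran from 0 to 19.92 normalized counts and was not called (smallest limma adjusted p = 0.443).

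Of 11 miRNAs listed as repressors of RUNX2, 6 were measured, miR-30c-5p among them. Perfusion over plates called 1 of the 6 higher (20.6% of all miRNAs were called there, 10.3% higher), namely miR-23a (log2 fold change 0.90 ± 0.30, limma adjusted p = 0.0493), and microcarriers over plates, with 2.38% of all called, called the same one (1.50 ± 0.30, adjusted p = 0.0143). Perfusion over microcarriers, with 15.5% of all called and 5.56% called higher, called 1 higher, the muscle miRNA miR-133a-3p (1.87 ± 0.37, limma adjusted p = 0.00379). In microcarriers over plates 1.59% of all were called higher. In each comparison 1 of 6 is above the share of all miRNAs called higher. It is a single row each time, so nothing is concluded about the list. The miR-23a call in perfusion over plates lies close to the threshold, and how it stands in the alternative fits was not examined. No member of the RUNX2 list was called lower in any comparison. Its median log2 fold change was -0.38 in perfusion over plates, -0.21 in microcarriers over plates and -0.42 in perfusion over microcarriers, where that of all miRNAs was -0.06, 0.11 and -0.07. Among the uncalled, miR-34c stood at -1.55 ± 0.87 in perfusion over plates (limma adjusted p = 0.249) and miR-204 at -0.62 ± 1.08 (adjusted p = 0.722).

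Whether members moved apart was tested by expressing every miRNA relative to miR-30d of the same library, which removes the scaling between libraries. The 5p arms are near-identical in sequence, and how the authors assigned reads that fit more than 1 of them is not given in the sources used here, so the split between members is uncertain. miR-30e-5p was 0.132, 0.190, 0.167 and 0.184 of miR-30d in perfusion, 0.233, 0.233, 0.262 and 0.316 on microcarriers, and 0.295, 0.627, 0.647 and 0.262 on plates. The 4 perfusion ratios lay below all others. The share of all miRNAs that separate on this ratio scale was not counted. On levels, 10.7% were wholly lower in perfusion than on plates and 13.1% than on microcarriers. Perfusion over plates gave -1.34 ± 0.33 on the log2 ratio scale (limma adjusted p = 0.0139 over 251 miRNAs), lower in 4 of 4 donors. It was the 1 called of the 9 other members, where 19.5% of all miRNAs were called, 9.16% higher and 10.4% lower. Over 18 alternatives the limma adjusted p ran from 0.00607 to 0.0457. Since miR-30d differed by -0.01 between perfusion and plates, this test nearly repeats the one on levels (-1.35) and is no separate support. Perfusion over microcarriers gave -0.64 ± 0.33 (limma adjusted p = 0.18), so a fall of miR-30e-5p beyond that of miR-30d was not shown there. In that comparison limma called 0 of the 9, where 19.1% of all miRNAs were called, 10.8% higher and 8.37% lower. An unadjusted limma p under 0.05 was reached there by 0 of the 9 and by 89 of all 251. In microcarriers over plates limma called 0 of the 9, where 4.78% of all miRNAs were called, 1.2% higher and 3.59% lower. The unadjusted level was reached there by 1 of the 9 and 59 of the 251, and in perfusion over plates by 2 and 76.

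For miR-30e-3p the ratio to miR-30d was 0.0928, 0.105, 0.105 and 0.101 in perfusion, 0.155, 0.226, 0.108 and 0.117 on microcarriers, and 0.312, 0.155, 0.128 and 0.180 on plates. Perfusion again lay below every other library, and the share of all miRNAs that do so on this scale was not counted. The log2 ratio difference of -0.86 ± 0.33 from plates did not pass in limma (adjusted p = 0.0818). miR-30b-5p was 0.137, 0.147, 0.278 and 0.177 of miR-30d in perfusion, 0.0316, 0.0465, 0.144 and 0.166 on microcarriers, and 0.0591, 0.0889, 0.203 and 0.0337 on plates. Perfusion was highest within each donor, but the groups overlapped and the log2 ratio difference from plates was 1.19 ± 0.58 (limma adjusted p = 0.179). For miR-30a-5p the difference in log2 ratio was -0.55 ± 0.41 for perfusion over plates (adjusted p = 0.4) and -0.86 ± 0.41 for microcarriers over plates (adjusted p = 0.235), both in limma.

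**Figure D4:**
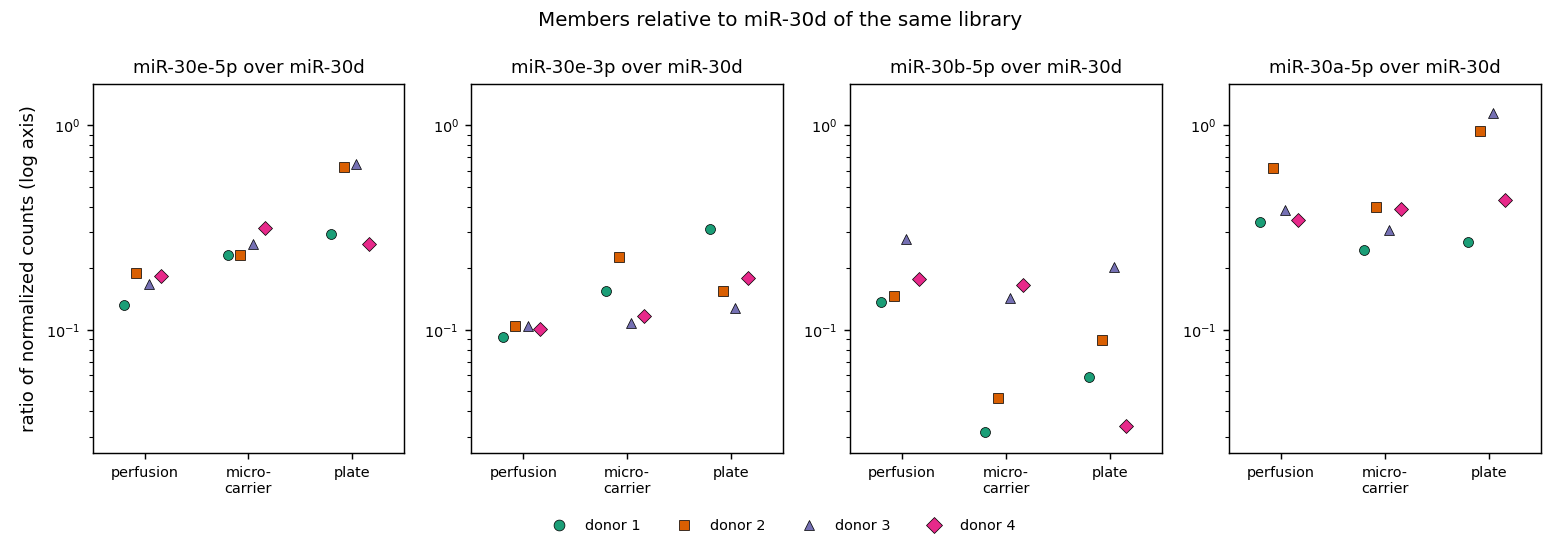
Ratio of 4 miR-30 rows to miR-30d of the same library (y axes, logarithmic) in perfusion, microcarrier and plate vesicles, 1 marker per donor. miR-30e-5p is lowest in the 4 perfusion libraries (0.132 to 0.190), whereas miR-30b-5p is 0.137 to 0.278 in perfusion, 0.0316 to 0.166 on microcarriers and 0.0337 to 0.203 on plates, with overlap.

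The balance of the 2 arms was computed as (5p + 1)/(3p + 1) for the miR-30a, miR-30b and miR-30e hairpins. miR-30c was left out because its 5p arm can come from 2 hairpins, and miR-30d because it has 1 row. For miR-30e it was 1.42, 1.81, 1.59 and 1.81 in perfusion, 1.51, 1.03, 2.42 and 2.70 on microcarriers, and 0.947, 4.05, 5.04 and 1.46 on plates. The perfusion libraries were close together, and plate donors 2 and 3 stood above all others. The same plate donors had the highest balance of miR-30a, at 26.9 and 34.8. It was 11.2 to 18.7 in perfusion, 7.92 to 19.3 on microcarriers, and 8.01 and 10.1 in plate donors 1 and 4. The miR-30e balance differed by -0.48 on the log2 scale between perfusion and plates (exact permutation p = 0.4, two-sided, adjusted p = 0.8 over 9 tests). For miR-30b the perfusion value was 7.66 ± 1.57 against 5.08 ± 1.32 on plates on the log2 scale (SD, n = 4 each; exact permutation p = 0.0857, adjusted p = 0.386). Against the 5.68 ± 0.69 on microcarriers the exact permutation p was 0.0571 (adjusted p = 0.386). In perfusion donor 2 miR-30b-3p was listed at 0, so its 885 rests on the added 1. None of the 9 tests passed. The smallest p that 4 against 4 libraries can give is 0.0286, which becomes 0.257 after adjustment when 1 of the 9 reaches it alone, so a single hairpin could not have passed.

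**Figure D5:**
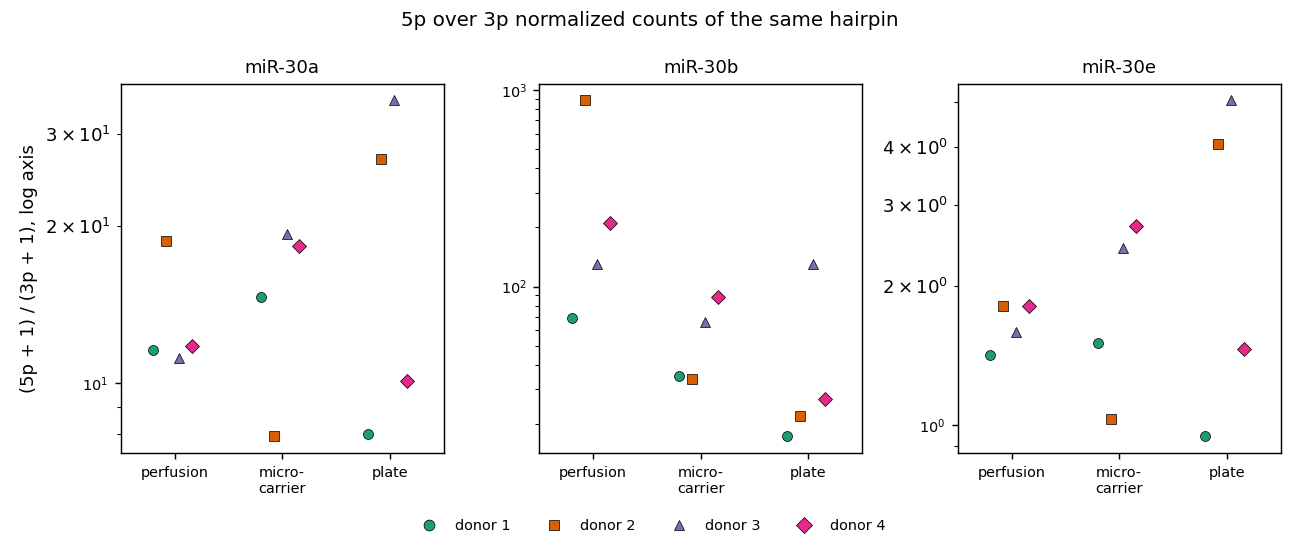
Balance of the 5p over the 3p arm, (5p + 1)/(3p + 1), on logarithmic y axes for the miR-30a, miR-30b and miR-30e hairpins, 1 marker per donor. Plate donors 2 and 3 are highest for miR-30a (26.9 and 34.8) and miR-30e (4.05 and 5.04), and the perfusion libraries of miR-30e lie between 1.42 and 1.81.

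The members did not follow 1 common profile. Likeness was measured as the SD, over the 12 libraries, of the log2 ratio of 2 miRNAs, so that a small value marks a near-constant ratio, which 2 steady miRNAs give as well as 2 that vary together. The SD of a member's own log2 level was 0.26 for miR-30d, 0.35 for miR-30c-5p, 0.50 for miR-30a-3p, 0.58 for miR-30a-5p, 0.66 for miR-30e-3p, 0.68 for miR-30e-5p and 0.90 for miR-30b-5p, and 1.04 to 1.24 for the 3 low 3p rows. The closest pair within the family was miR-30c-5p and miR-30d, at 0.31, which lie in different gene pairs. The 2 arms of 1 hairpin, miR-30e-5p and miR-30e-3p, gave 0.73. Among 5p rows of neighbouring genes, miR-30b-5p with miR-30d gave 1.05. There miR-30c-5p gave 0.78 with miR-30a-5p and 0.78 with miR-30e-5p. Among 136 other miRNAs averaging at least 100 normalized counts, those closest to miR-30d were let-7f-5p and miR-532-5p, both at 0.29, which is above the own SD of miR-30d and describes steady levels. miR-361-5p (0.24) and let-7f-5p (0.29) were closest to miR-30c-5p. For miR-30e-5p they were miR-152 (0.45) and miR-4334-3p (0.48), where the median over the 136 was 0.95. miR-152 was also second closest to miR-30a-5p (0.48), after miR-148a-5p (0.39). For miR-30b-5p the closest were miR-20b (0.40) and miR-19b (0.43), 2 miRNAs of the miR-17-92 cluster and its paralogues, with a median of 1.09 over the 136. miR-320 (0.38) and let-7a (0.40) were closest to miR-30e-3p, and miR-532-5p (0.38) and let-7f-5p (0.39) to miR-30a-3p. The low 3p rows had no close partner: miR-4334-3p and miR-199b-5p were nearest to miR-30b-3p (0.88 and 0.89), miR-22-5p and miR-7134-3p to miR-30c-3p (0.85 and 0.92), and miR-708-3p and miR-361-5p to miR-30c-1-3p (0.60 and 0.67). These values describe 12 libraries that share donors and scaling, and carry no test.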

How the data were processed

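Small RNA libraries were made from vesicle RNA with a NEBNext kit, per the labels. The submitters' processing notes name Bowtie for alignment; the sources used here give no version, genome build, annotation or counting step. The deposited signal is a normalized read count per mature miRNA, per the file headers. Each library's values were whole multiples of 1 step, from which reads were recovered. The lowest values above 0 rest on 2 reads or more, so 0 is reported as listed.

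All 252 miRNAs were at 1 or more in at least 4 libraries. They were fitted with limma 3.58.1 (R 4.3.3; trend) on log2(value + 1), all 12 libraries in 1 fit, culture method as the factor, with Benjamini-Hochberg adjustment over the table. This scale understates changes of low miRNAs. Intervals are 95%. Differences between members were fitted on log2 ratios to miR-30d. Arm balances used exact two-sided permutation. The fit was also run on simulated counts with 1 common spread for all miRNAs and no donor effect. That run does not measure recovery at the spread of these data. Figures and sums used Python 3.11.15, pandas 2.3.3 and matplotlib 3.10.9.

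Same-numbered libraries came from the same donor, and their deviations from group means correlated at 0.02 to 0.67, so donor as a block was fitted as an alternative. Others were the scaling, the pseudocount, a filter at 10, no trend, fits of 2 groups, limma-voom and leaving out each library. The members, lists and named-miRNA rule (every family row, the 2 nearest other miRNAs for each, called RUNX2-list members with up to 2 uncalled) were chosen with earlier results of these data known. No sequence table was used here. Every pair of donors within a group differed by more than the counting error of its reads.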

Additional observations from a re-analysis of the deposited data

Results flagged for a closer look

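In 39 groups of 4 libraries (the 10 rows and 3 arm balances in each culture), 3 held 1 library far from the other 3, where chance alone gives about 1 in 20. miR-30c-3p stood at 14.88 normalized counts in perfusion donor 3, against 7.77 to 8.249 in the other perfusion libraries. The miR-30a 5p over 3p balance was 18.7 in perfusion donor 2, against 11.2 to 11.8 in the others. miR-30a-3p stood at 353.7 in microcarrier donor 2, against 112.9 to 135.2 in the others.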

How the results depend on the processing

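Calls over all miRNAs were 52, 6 and 39 in perfusion over plates, microcarriers over plates and perfusion over microcarriers. With donor as a replicate block they were 64, 23 and 59, and members called were 2, 0 and 1. A fit of 2 groups gave 3 for microcarriers over plates. Leaving out single libraries gave 29 to 55, 3 to 12 and 22 to 49 calls. Perfusion over plates gave 29 and 30 calls without perfusion donors 1 and 3. Microcarriers over plates gave 12, 3 and 3 without plate donors 1, 3 and 4, and perfusion over microcarriers gave 24, 25 and 22 without perfusion donors 1, 3 and 4. Members called were then 1 to 2 in perfusion over plates and 0 to 1 in perfusion over microcarriers. Under library totals, trimmed mean scaling and no trend they were 0 in perfusion over microcarriers. Alternatives for single members include fits without a library of the third culture, which change the shared spread but not the fold change. Of 843 alternative values of single members, 800 kept direction and side of the threshold, 2 gained the call (miR-30b-5p), 10 lost it (miR-30e-5p in perfusion over microcarriers) and 31 changed sign, none of them called. The cause was not tested.

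Those that changed sign with a library left out were, in perfusion over microcarriers, miR-30a-5p (-0.24 to 0.16; -0.01 in limma-voom), miR-30a-3p (-0.02 to 0.53) and miR-30c-3p (-0.07 to 1.39). In microcarriers over plates they were miR-30b-5p (-0.03 to 0.66, and relative to miR-30d -0.41 to 0.45), miR-30c-5p (-0.15 to 0.35), miR-30c-1-3p (-0.05 to 1.13) and miR-30e-3p (-0.29 to 0.25). In perfusion over plates they were miR-30c-5p (-0.39 to 0.11), miR-30d (-0.10 to 0.09; 0.06 and 0.04 under library totals and trimmed means) and miR-30c-1-3p (-0.72 to 0.46; -0.07 with a pseudocount of 10 and -0.68 in limma-voom). Arm balances ran from -0.70 to 0.00 for miR-30a in perfusion over plates, -0.57 to 0.13 for miR-30a and -0.80 to 0.01 for miR-30e in microcarriers over plates, and -0.41 to 0.02 and -0.38 to 0.09 for the same hairpins in perfusion over microcarriers. The miR-30b balance moved most, over all its alternatives from 1.72 to 3.42 (2.58 as reported) in perfusion over plates and 1.24 to 2.80 (1.98) in perfusion over microcarriers. Paired by donor, no balance passed, since 4 pairs cannot give a p below 0.125.

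Limma-voom on recovered reads was added after seeing the data, and 2 planned count tests were not run. Reads limit miR-30b-3p, miR-30c-1-3p and miR-30c-3p, which ran from a listed 0 to 47 reads per library.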
